A study of Homo sapiens with 2 samples.

Results

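Sites listed for SOX2 were looked for at 8 genes for spliceosomal small nuclear RNAs (snRNAs), the short uridine-rich RNAs at the core of the machinery that removes introns. The genes were RNU2-2P, RNU4-1, RNU4-2, RNU5A-1 and RNU5B-1 of the major spliceosome, and RNU11, RNU12 and RNU4ATAC of the minor spliceosome. A site was taken as a member when it had at least 1 nt inside one of 7 hg19 intervals on a given strand; RNU4-1 and RNU4-2 share an interval. Of 72794 sites in both lists, 17 were members: 8 of 16964 in replicate 1 and 9 of 55830 in replicate 2.

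The data were PAR-CLIP sites from HEK293T cells, a human embryonic kidney line, made to express FLAG-tagged SOX2 from a transfected plasmid. In PAR-CLIP, cells take up 4-thiouridine, here at 0.2 mM for 16 hours, starting 24 hours after transfection. Ultraviolet light of 365 nm, here at 0.4 J per square cm, links protein to the labelled RNA before the tagged protein is pulled down. Both libraries were of the same group, and the design text calls them independent experiments; whether they came from separate cultures is not stated. The SOX2 that was pulled down came from the plasmid, so the sites are those listed for introduced, tagged protein. No control library was used here, so SOX2 contact and background of the pull-down cannot be told apart. The amount of each snRNA was not measured, so more RNA and more crosslinking per RNA cannot be told apart either.

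The major spliceosome removes nearly all introns and the minor one a small class with distinct splice sites. U2 RNA pairs with the branch site of the intron, and U12 does so in the minor spliceosome. U11 recognises the 5′ splice site of minor introns. U4 RNA holds U6 in an inactive pairing until activation, U4atac does the same for U6atac, and U5 RNA contacts the exon ends in both machineries. Each of these RNAs carries a ring of Sm proteins on a uridine-rich stretch. The RNAs of the major spliceosome are abundant in the nucleus, and those of the minor one are far scarcer. RNU2-2P was first named as a pseudogene but is an expressed U2 gene, and its current RefSeq symbol is RNU2-2.

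The sequences below were taken by gene name from the GENCODE release 29 transcripts, where all 8 genes were found, and are written as DNA. U4 is shown because it has a pair of near-identical genes, and capitals mark the bases that differ within the pair.
RNU4-1: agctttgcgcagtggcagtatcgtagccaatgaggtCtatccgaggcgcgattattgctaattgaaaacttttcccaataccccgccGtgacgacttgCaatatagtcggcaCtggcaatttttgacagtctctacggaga
RNU4-2: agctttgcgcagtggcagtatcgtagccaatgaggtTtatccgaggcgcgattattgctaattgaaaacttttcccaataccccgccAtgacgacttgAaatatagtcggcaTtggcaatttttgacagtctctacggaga

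RNU4-1 and RNU4-2 are 141 nt long and were identical at 137 positions; counted from the RNA 5′ end, RNU4-2 differs from RNU4-1 by C37T, G88A, C99A and C113T. Their longest identical stretch ran over 50 nt, from position 38 to 87, and a site inside it can come from either gene. RNU2-2P and RNU11 are shown because they hold the highest-scoring members of each spliceosome, and capitals mark the part of the RNA that the strongest site can cover; at RNU11 that site can also run past the 3′ end.
RNU2-2P: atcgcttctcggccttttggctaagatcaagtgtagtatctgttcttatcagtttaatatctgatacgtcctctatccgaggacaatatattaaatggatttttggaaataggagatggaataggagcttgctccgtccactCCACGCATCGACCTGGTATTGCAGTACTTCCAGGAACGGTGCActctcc
RNU11: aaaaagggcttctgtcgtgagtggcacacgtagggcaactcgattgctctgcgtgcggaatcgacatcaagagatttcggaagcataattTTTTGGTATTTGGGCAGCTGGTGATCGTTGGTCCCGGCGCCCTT

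The intervals are wider than the RNAs, by 20 nt for RNU2-2P, 15 nt for RNU5A-1 and 27 nt for RNU11, and no hg19 gene annotation was used. The place of a site on its RNA is therefore given as the range of positions it can take if the RNA lies wholly within its interval, each start of the RNA in the interval being called a placement. For RNU4-1 and RNU4-2 this leaves 16 nt, taking the 1334 nt between their 5′ ends from GRCh38.

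The sites at these loci stood high in both lists. The members were chosen with earlier results of these data known, and other spliceosomal RNA genes were not analysed. The scores of the members thus do not describe snRNAs at large. The score is a whole number given per site in the deposited lists and is at least 5; what it counts is not stated. Scores of at least 1000 were held by 5 of the 8 members of replicate 1 and 6 of the 9 of replicate 2, against 1.58% and 0.491% of all sites. The median score of the members was 1486 and 2490, against 26 and 19 for all sites. Together they took 0.652% of the score sum of replicate 1 and 1.06% of that of replicate 2, or 0.857% ± 0.290 (SD, n = 2). Their median length was 17 and 18 nt, against 16 and 17 nt for all sites, and they ranged from 14 to 44 nt and from 14 to 56 nt.

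**Figure D1:**
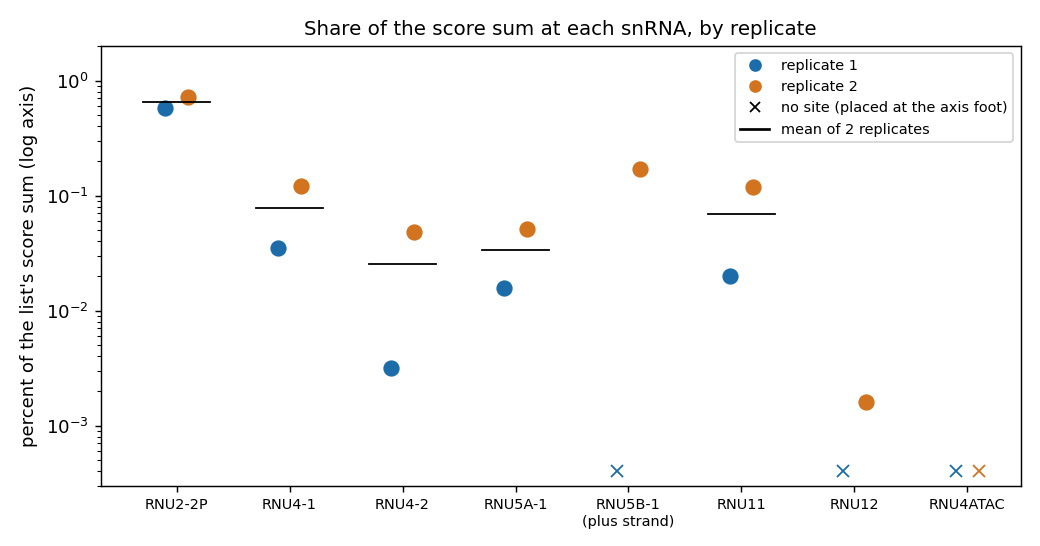
Share of each list's score sum (percent, log axis) at each snRNA; points are the replicates, lines the mean where both have a site, and crosses mark no site. RNU2-2P stands highest in both replicates at 0.578% and 0.721%, and RNU4ATAC has no site in either.

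RNU2-2P carried most of the signal, although much of its sequence also occurs in other genes' transcripts, as given further below. Its interval lay on the minus strand of chr11:62609080-62609290 (hg19), and in GENCODE the gene overlaps WDR74, a protein-coding gene of the same strand, so reads of these 2 transcripts cannot be told apart by position. The locus scored 31012 over 3 sites in replicate 1 and 37415 over 2 sites in replicate 2, a ratio of 1.21. This was 88.6% of the score of all snRNA members in replicate 1 and 67.9% in replicate 2. The members do not include a plus-strand site at RNU5B-1, given below, that scored 8857 in replicate 2 and would lower the latter share.

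The strongest RNU2-2P site ranked 14 in both lists. It ran from 62609106 to 62609141 in replicate 1, with a score of 24169, and from 62609106 to 62609128 in replicate 2, with a score of 35020. The end nearest the RNA 3′ end was thus the same nucleotide, and the other end lay 13 nt further upstream in replicate 1. On the RNA, the replicate 2 site fell within positions 143 to 185 of 191, the capitals in the sequence above, which is the 3′ part of U2.

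A second RNU2-2P site began at 62609076 in both lists and ended at 62609096 in replicate 1 (score 3381) and 62609093 in replicate 2 (score 2395). It reached out of the interval and ran at least 4 nt past the annotated 3′ end of the RNA. U2 RNA is made as a precursor with a 3′ extension that is trimmed later; whether precursor was captured was not tested. The remaining site, from 62609155 to 62609168, was listed in replicate 1 only, at a score of 3462, and lay within positions 103 to 136. All sites of the locus therefore lay at or beyond position 103, and the 5′ part that pairs with the branch site held none.

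**Figure D2:**
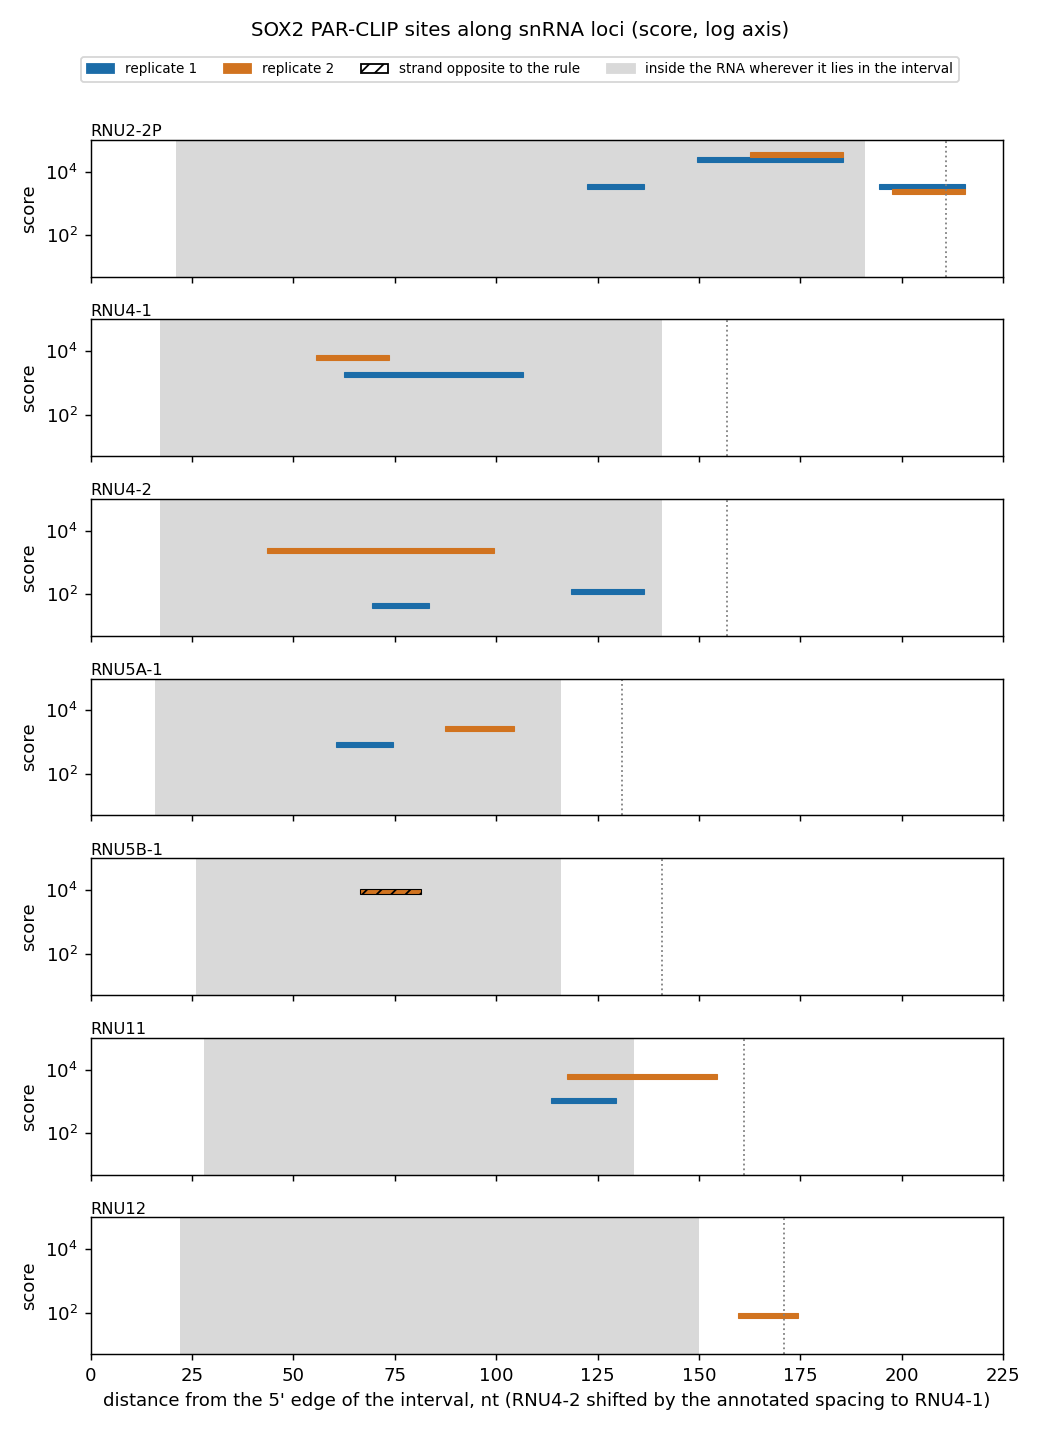
Sites along each snRNA: distance from the 5′ edge of the interval (nt) against score (log axis). Grey marks positions inside the RNA wherever it lies in the interval and dotted lines the end of the interval (for RNU4-1 and RNU4-2, the end that the spacing of the genes gives); RNU2-2P sites of both replicates share their right edges, and the RNU5A-1 sites of the replicates are apart.

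The interval of RNU4-1 and RNU4-2, on the minus strand of chr12:120729550-120731040, held 3 sites in replicate 1 and 4 in replicate 2, with score sums of 2065 and 8813. GENCODE places RNU4-1 upstream of RNU4-2, at the higher coordinates. At RNU4-1, the only site of replicate 1 ran from 120730935 to 120730978 and scored 1896, and that of replicate 2 ran from 120730968 to 120730985 and scored 6283. They overlapped by 11 nt. At RNU4-2, replicate 2 had 1 site from 120729608 to 120729663, the longest of the members at 56 nt, with a score of 2490. Replicate 1 had a site of 14 nt inside it, from 120729624 to 120729637, with a score of 46.

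The RNU4-1 score sum was 11.2-fold that of RNU4-2 in replicate 1 and 2.52-fold in replicate 2, so RNU4-1 was the higher in both. How reads matching both genes were placed is not stated in the labels, so what it adds to this order was not tested. The RNU4-1 site of replicate 2 fell in sequence shared with RNU4-2 wherever the RNA starts in its interval (17 of 17 placements), as did the 14 nt RNU4-2 site of replicate 1. The longer sites, of 44 nt at RNU4-1 in replicate 1 and 56 nt at RNU4-2 in replicate 2, spanned at least 1 base that differs between the genes in every placement. When the genes were laid over each other, these 4 sites had 4 nt in common, which lay between positions 54 and 73 of the RNA.

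The other U4 sites had no overlapping site in the other list. At RNU4-2, replicate 1 listed a site from 120729571 to 120729588, within positions 103 to 136. It scored 123, rank 2049 of that list and above the other RNU4-2 site there, at 46. In replicate 2 a pair of sites fell in the stretch between the genes, from 120730361 to 120730374 and from 120730646 to 120730662, with scores of 18 and 22, near the median of that list.

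U5 gave a different picture, since the replicates did not list the same site. The interval of RNU5A-1 lay on the plus strand of chr15:65588380-65588510. In replicate 1 its site ran from 65588440 to 65588453 with a score of 843, and in replicate 2 from 65588467 to 65588483 with a score of 2680. The sites were 13 nt apart. The former lay within positions 46 to 74 of the RNA, and the latter within positions 73 to 104.

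RNU5B-1 held no member, because its interval (chr15:65597000-65597140) was set on the minus strand, while GENCODE gives the gene on the plus strand. On the plus strand, replicate 2 had a site from 65597066 to 65597080 with a score of 8857, rank 44 of the list and above every snRNA member of that list other than the strongest RNU2-2P site. Replicate 1 had no site on either strand of the interval. This site lay within positions 42 to 81 of the RNA. The U5 genes are close paralogues, and how reads matching more than one of them were placed is not stated.

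Among the minor spliceosome RNAs, RNU11 had sites in both lists. Its interval lay on the plus strand of chr1:28975100-28975260. The site of replicate 1 ran from 28975213 to 28975228 with a score of 1076, and that of replicate 2 from 28975217 to 28975253 with a score of 6150. They overlapped by 12 nt, and the replicate 2 site reached 25 nt further towards the 3′ end. It began at or after position 91 of the 134 nt RNA, lay wholly inside the RNA in 8 of 28 placements and ran past the 3′ end in the other 20. None of the 115 windows of 20 nt along RNU11 occurred in the GENCODE transcripts of another gene outside the locus; AL360012.1, a long noncoding RNA gene on the same strand, overlaps it. The shorter site of replicate 1, at 16 nt, had a copy in such transcripts in 4 of 28 placements, over 5 other genes, and the replicate 2 site had none in the 8 placements inside the RNA.

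RNU12, on the plus strand of chr22:43011240-43011410, had 1 site, in replicate 2 only, from 43011399 to 43011413 with a score of 84. It ran out of the interval and at least 3 nt past the annotated 3′ end, so at most 12 of its 15 nt lay on the RNA. Z93241.1, a long noncoding RNA gene on the same strand, overlaps RNU12 in GENCODE. RNU4ATAC, on the plus strand of chr2:122288450-122288590, had no site in either list or on either strand. With unknown depth this shows only that no site was listed. The minor spliceosome loci took 3.07% of the snRNA member score in replicate 1 and 11.3% in replicate 2. With RNU5B-1 taken on the plus strand, the value of replicate 2 was 9.74% and that of replicate 1 was unchanged.

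Across the loci with sites in both lists, the order of the score sums was the same in both: RNU2-2P first, then RNU4-1 with RNU4-2, RNU11 and RNU5A-1. All 6 pairs of these 4 loci were ordered alike. RNU5B-1 on the plus strand is left out of this order, since replicate 1 had no site there. Its score of 8857 in replicate 2 was above the 8813 of RNU4-1 with RNU4-2. RNU2-2P took 0.649% ± 0.101 (SD, n = 2) of the score sum, RNU4-1 with RNU4-2 0.104% ± 0.0928, RNU11 0.0692% ± 0.0696 and RNU5A-1 0.0337% ± 0.0254. RNU2-2P stood above the rest by more than the spread between replicates, while the other loci differed from their neighbours by less than the larger of the SDs compared. That spread takes in the higher scores of these loci in replicate 2, whereas their order was the same within each list.

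Per nt of RNA, the score was 162 and 196 for RNU2-2P in replicates 1 and 2. It was 13.4 and 44.6 for RNU4-1, 8.03 and 45.9 for RNU11, 7.27 and 23.1 for RNU5A-1, and 1.20 and 17.7 for RNU4-2. On this scale RNU2-2P again stood first, and RNU4-1 and RNU11 changed places between the lists. RNU5B-1 on the plus strand had 76.4 in replicate 2, below RNU2-2P only, and no site in replicate 1.

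All 4 loci with sites in both lists had the higher listed score sum in replicate 2, with no test possible on 1 value per library. The ratio of replicate 2 to replicate 1 was 1.21 for RNU2-2P, 3.18 for RNU5A-1, 4.27 for RNU4-1 with RNU4-2 and 5.72 for RNU11. The score sums of the whole lists were close, at 5365592 and 5192778, but they depend on a few sites. All members together took 0.652% and 1.06% of these sums. Without the 10 strongest sites of each list they took 1.62% in both replicates. Whether the member total was higher in replicate 2 thus depends on the sum it is set against. The ratios per locus were not set against the sum without these sites, so their direction on that scale is not given. The ratio nearest to even was that of RNU2-2P, at 1.21. Among the 5 overlapping pairs of snRNA sites, 4 scored higher in replicate 2, against 42.9% of the 3636 overlapping pairs of the lists. The log2 ratios of the pairs were -0.50 and 0.54 at RNU2-2P, 1.73 at RNU4-1, 2.51 at RNU11 and 5.76 at RNU4-2; over all pairs the median was -0.21 and the SD 1.37. The RNU4-2 pair, 46 against 2490, had a ratio above that of 99.8% of all pairs.

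**Figure D3:**
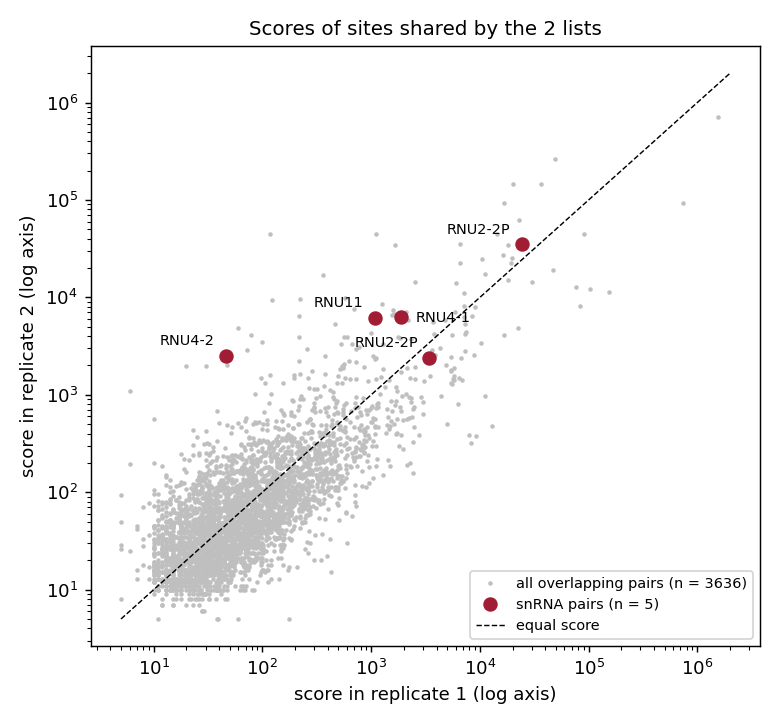
Score in replicate 1 against score in replicate 2 (both log axes) for the 3636 overlapping pairs (grey) and the 5 snRNA pairs (red). The strongest RNU2-2P pair lies near the line of equal score and the RNU4-2 pair, at 46 and 2490, lies far above it.

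A site counted as shared when a site of the other list covered at least 1 of its nt on the same strand. Of the members, 5 of 8 in replicate 1 and 5 of 9 in replicate 2 were shared, against 21.3% and 6.5% of all sites. Strong sites were shared more often in general: with scores of at least 1000, 60.8% and 55.1% of all sites were shared, and 4 of 5 and 5 of 6 members. At this number of members the shares are near that background. Of the 5 snRNA pairs, 2 had the same genomic start, both at RNU2-2P, against 16.5% of all pairs, and 0 had the same end, against 17.6%.

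The members also have sequence in common. The letters ATTTTT, the core of the stretch that the Sm ring binds, were searched on the RNA strand only in the 6 RNAs other than U5. They occurred once in each, and in 32.8% of the 1900 snRNA transcripts of GENCODE, many of which are pseudogenes. Wherever the RNA starts in its interval, these letters lay at least partly within the RNU4-2 site of replicate 1 that scored 123. Neither the strongest RNU2-2P site nor the RNU4-1 sites touched them in any placement. The RNU2-2P site of replicate 1 that scored 3462 touched them in 2 of 21 placements. At RNU11 they were touched in 7 of 28 placements in replicate 1 and 3 of 28 in replicate 2.

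Copies elsewhere limit what a site says of its gene. Of the windows of 20 nt along each of these RNAs, 97.1% of those of RNU2-2P occurred in GENCODE transcripts of other genes, 80.3% of RNU4-1 and 79.5% of RNU4-2, against 31.5% of RNU4ATAC and 26.0% of RNU12. The strongest RNU2-2P sites, of 36 nt in replicate 1 and 23 nt in replicate 2, had a copy in another gene's transcripts in all 21 placements. The 14 nt RNU2-2P site of replicate 1 had one in all 21 as well. Over the placements, these copies lay in 2, 6 and 36 other genes. The 18 nt RNU4-1 site of replicate 2 had copies in all 17 placements, over 36 other genes. So did the RNU4-2 sites of replicate 1, over 66 other genes at 14 nt and 32 at 18 nt. These counts take in the paralogue. The RNU4-1 site of 44 nt and the RNU4-2 site of 56 nt had no copy. Reads can be longer than a site, so these shares do not give the share of reads that match several places.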

How the data were processed

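Both libraries come from HEK293T cells expressing FLAG-tagged SOX2. The labels' protocols give RNase T1 digestion, 18 PCR cycles and reads of 50 nt. Bowtie 1.1.2, bcl2fastq and the build hg19 are named in the submitters' processing notes. For the site caller, its thresholds and reads matching several places, nothing is stated there. The authors deposited 1 list of sites per library with a whole-number score per site, whose meaning is not stated, so depth is unknown and score sums are given in its place.

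Members were found by position and sites were overlapped with pandas 2.3.3 and numpy 2.4.6 under Python 3.11.15. The overlap step was tested on simulated lists. Positions count from 1. GENCODE release 29 (GRCh38) was used only for names, strands, order, spacing, overlapping genes and transcript sequences; no coordinates were converted. The U5 sequences are not reported here. Genes overlapping a member on its strand were left out when copies were counted. Named sites followed a rule: all shared sites, the highest of each locus and list, and all others where a locus held few, which here covers every member. The members, lists and rules were chosen with earlier results of these data known. No test between groups was possible with 1 group, and other spliceosomal RNA genes were not analysed here for want of hg19 positions.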

Additional observations from a re-analysis of the deposited data

How the results depend on the processing

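Leaving out a replicate was set aside, as was RNU5B-1 on the plus strand for the order and log2 ratios. These take only loci with sites in both lists, so RNU5B-1 could not move them. Of the other 42 alternative values, 37 stayed close to the main one (counts within 1.5 times, shares within 1 SD of the replicates or the 95% Wilson interval of the main share, log2 ratios within the SD of all pairs) and 5 moved. Some of the 37 could not move either. The strongest site is the score sum at RNU5A-1 and RNU11, and sharing seen from replicate 1 gains no RNU5B-1 site. Both rescalings of the scores shift every log2 ratio by the same amount, small beside the SD of 1.37. The 37 is thus no measure of robustness. These values are also not independent, since several give the same result per locus. The share of the score sum at the snRNA loci became 1.62% without the 10 strongest sites of each list, with 1.62% in both replicates; the smaller denominator makes it larger by construction. The shared members became 25.0% of replicate 1 and 22.2% of replicate 2 with 50% of both sites required, which left the RNU2-2P pairs only, and 100% of replicate 1 with gaps of up to 50 nt, from 62.5% and 55.6%. The minor spliceosome loci held 17.4% of the number of sites against 7.19% of the score. Leaving out a replicate gave 8 to 9 sites, 0.652% to 1.06% of the score sum and 3.07% to 11.3% for the minor loci; the minor share thus depends on which library is used. Leaving one out leaves no overlap, order or ratio to compute. Taking RNU5B-1 on the plus strand, an alternative chosen after seeing the data, gave 0.942% of the score sum and 6.41% for the minor loci. No paired analysis was possible because both libraries belong to a single group. Depth is unknown, so whether a missing site means less contact or fewer reads was not tested.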

Other observations

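Few sites lay near the intervals, and no test was made of their side. On the strand of the RNA, replicate 2 had 4 sites within 1 kb downstream and 0 upstream, and 6 and 2 within 10 kb. RNU5A-1 and RNU5B-1 lie within 10 kb of each other, so the 10 kb counts take in their own sites. Both upstream sites of replicate 2 were counted from RNU5B-1. They were the RNU5A-1 site and the site scoring 17, which was also counted downstream of RNU5A-1. The downstream count of replicate 2 includes the plus-strand site at RNU5B-1. Replicate 1 had 1 downstream and 1 upstream within 1 kb, and 2 and 2 within 10 kb, where the RNU5A-1 site was 1 of those upstream. The upstream site of replicate 1 within 1 kb lay 744 nt before RNU5B-1 with a score of 66. Within 10 kb it was also counted downstream of RNU5A-1. Downstream of RNU12, replicate 1 had a site from 43011570 to 43011583 with a score of 251 and replicate 2 one from 43011522 to 43011537 with a score of 491, both above the only site at the RNU12 interval itself (84); they did not overlap. Just past the RNU11 interval, replicate 2 listed sites from 28975270 to 28975288 and from 28975351 to 28975366 with scores of 42 and 20. At RNU5A-1 a site with a score of 17 lay 119 nt downstream in replicate 2. None of these downstream sites was shared between the lists. The extent of 1 kb was set without regard to transcript ends, and which transcripts these sites belong to was not tested.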
